A study of Mus musculus with 4 samples.

Results

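The 165 protein-coding olfactory receptor genes of mouse chromosomes 9 and 16 were examined for islands of trimethylated lysine 9 of histone H3 (H3K9me3) in CD8+ T cells. They were chosen by symbol (Olfr followed by a number) from the RefSeq genes of assembly GRCm38.p6, which is the sequence mm10 refers to. They are 129 genes on chromosome 9 and 36 on chromosome 16, of 1106 olfactory receptor genes and 21900 protein-coding genes in the table. No measured value entered this rule, but earlier results of these data were known when the genes were chosen. The mark was mapped by native chromatin immunoprecipitation and sequencing, in which chromatin is cut with micrococcal nuclease without cross-linking. Naive wild-type C57BL/6 CD8+ T cells (day 0) were compared with wild-type C57BL/6 CD8+ T cells on day 3 of culture with anti-CD3 and anti-CD28 antibodies and IL-2. There was 1 ChIP library per day, and the 2 input libraries were not analysed here. Every difference below is therefore between 2 libraries, without a replicate check or a test.

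Olfactory receptors are G protein-coupled receptors that detect odorants in the nose. Their genes are short, most have their coding sequence in a single exon, and they lie in clusters along many chromosomes. Each olfactory neuron expresses a single receptor allele, and in that tissue the silent copies are known to carry heterochromatin marks that include H3K9me3. T cells are not a known site of olfactory receptor function. The receptors on chromosomes 9 and 16 belong to class II, the class of land vertebrates.

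An island is a region that passed the authors' significance threshold, and its deposited whole number was read as a count of ChIP reads. The lists held 19989 islands holding 3402787 reads (day 0) and 47553 islands holding 10423178 reads (day 3). Islands covered 4.08% of the autosomes on day 0 and 8.07% on day 3, so the day 3 list was about 1.98 times as large in covered sequence. Of 7 genes listed for CD8 T cells, not all of them specific to these cells, none carried an island on either day. They were Cd8a, Cd8b1, Cd3d, Cd3e, Cd3g, Lck and Cd2. Among 7 genes of other cells, Cd4 had an island on day 0 and the B cell gene Ms4a1 on day 3. In bulk cells, marking of some cells and weaker marking of all cannot be told apart. An island shows neither expression nor cell type, and a gene without one may still carry the mark below the threshold.

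On day 0, 7 of the 165 receptor genes (4.24%, 95% Wilson interval 2.07 to 8.50) had at least 1 bp of their body in an island. On day 3 the number was 42 (25.5%, interval 19.4 to 32.6). Among all protein-coding genes the shares were 22.7% on day 0 and 27.1% on day 3. Receptor genes with islands on both days numbered 6 (3.64%), against 15.9% of all protein-coding genes. A further 36 (21.8%) had an island on day 3 and none on day 0, against 11.2%. Only Olfr912 had one on day 0 and none on day 3 (0.606%, against 6.74%). These intervals cover counting error only, and neighbouring genes can share an island.

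Receptor genes are short, with a median body of 945 bp, and short genes meet an island less often. Among the 137 receptor genes with a body of up to 2000 bp, 4 (2.92%) had an island on day 0 and 23 (16.8%, interval 11.5 to 23.9) on day 3. Among 1639 other protein-coding genes of that length, 24 (1.46%) and 43 (2.62%, interval 1.95 to 3.52) had one. Without the mitochondrial genes these were 20 (1.23%) and 37 (2.28%) of 1626. The 28 receptor genes with longer bodies had an island in 3 cases on day 0 and in 19 (67.9%) on day 3. The share among other protein-coding genes of matched longer bodies is not given here, so 67.9% cannot be called high or ordinary. Counted in bases, 2.09% of the summed receptor bodies (419.3 kb) was covered on day 0 and 15.4% on day 3. On chromosome 9 these shares were 2.18% and 16.5%, and on chromosome 16 they were 1.93% and 13.1%. The whole of chromosome 9 was covered to 4.45% and 7.90%, and chromosome 16 to 3.91% and 9.81%. The summed receptor bodies of each chromosome thus lay below that chromosome on day 0 and above it on day 3. By length, the 137 bodies of up to 2000 bp were covered to 2.60% on day 0 and 6.86% on day 3. The 28 longer bodies were covered to 1.85% and 19.5%. On day 3 the shorter bodies, pooled over both chromosomes, were therefore below the share of either chromosome, and the longer bodies were above it.

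The receptor genes with the mark in naive cells were few, and the sequences around 4 of their starts are shown because they are all the start windows that lay in a day 0 island. Each runs from 250 bases before to 50 bases after a RefSeq start, in GRCm38.p6, with the 50 bases from the start onwards in capitals. Olfr867 (9, minus strand, 20055412 to 20055711), Olfr878 (9, plus strand, 37918298 to 37918597) and Olfr181 (16, minus strand, 58928595 to 58928894) were inside islands on both days. The window of Olfr912 (9, plus strand, 38579994 to 38580293) was inside an island on day 0 and in none on day 3. The letters ATG stand at the annotated start of Olfr867 and not at that of the other 3 genes.
Olfr867: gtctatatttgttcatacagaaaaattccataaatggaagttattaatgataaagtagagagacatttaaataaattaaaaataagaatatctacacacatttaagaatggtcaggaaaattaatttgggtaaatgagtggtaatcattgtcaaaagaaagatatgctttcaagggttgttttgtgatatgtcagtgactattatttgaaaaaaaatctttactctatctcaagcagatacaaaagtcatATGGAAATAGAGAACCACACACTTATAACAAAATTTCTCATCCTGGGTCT
Olfr878: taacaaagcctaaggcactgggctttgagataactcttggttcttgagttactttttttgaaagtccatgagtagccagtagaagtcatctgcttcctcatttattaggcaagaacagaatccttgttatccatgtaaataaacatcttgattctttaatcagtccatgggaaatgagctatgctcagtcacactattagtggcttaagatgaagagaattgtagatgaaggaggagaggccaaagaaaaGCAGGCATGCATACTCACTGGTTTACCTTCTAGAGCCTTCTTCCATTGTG
Olfr181: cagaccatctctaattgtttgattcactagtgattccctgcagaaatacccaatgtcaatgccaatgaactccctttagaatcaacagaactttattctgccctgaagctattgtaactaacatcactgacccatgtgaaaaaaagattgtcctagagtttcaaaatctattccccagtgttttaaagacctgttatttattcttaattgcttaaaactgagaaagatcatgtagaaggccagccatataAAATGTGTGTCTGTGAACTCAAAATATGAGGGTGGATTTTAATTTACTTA
Olfr912: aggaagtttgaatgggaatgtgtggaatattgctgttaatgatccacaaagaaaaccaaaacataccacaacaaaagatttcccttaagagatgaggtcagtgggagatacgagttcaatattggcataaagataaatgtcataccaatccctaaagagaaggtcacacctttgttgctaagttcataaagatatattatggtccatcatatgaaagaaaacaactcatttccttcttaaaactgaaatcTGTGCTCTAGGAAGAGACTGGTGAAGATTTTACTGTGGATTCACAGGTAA

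Olfr878 (chromosome 9, 37918548 to 37919612) was the only receptor gene of the 165 whose whole body lay in an island on both days. Its day 0 island (37916401 to 37920400) held 153 reads (exact 95% Poisson interval 130 to 179), and its day 3 island (37915401 to 37921800) contained that region and held 299 reads (266 to 335). Read counts here and below are not scaled for depth or island length, so they are not compared between the days. Olfr867 (chromosome 9, 20054466 to 20055461) was covered over its 996 bp on day 0 and over 661 bp on day 3. Its day 0 island (20046001 to 20056200) was the longest of that day in any of the clusters, with 10.2 kb and 291 reads, and it was also the least dense, with 28.5 reads per kb. Olfr167 (chromosome 16, 19514696 to 19515634) was covered over its 939 bp on day 0 and over 234 bp on day 3. These 3 genes were fully covered in naive cells, and 2 of them were covered over a shorter stretch on day 3.

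Olfr872 (chromosome 9, 20237162 to 20260913) had 3.40 kb in islands in naive cells and 5.24 kb after culture. The day 0 island (20254601 to 20258000) and the 2 day 3 islands in Olfr872 did not overlap, so the covered parts of the gene were different. Olfr181 and Olfr183 on chromosome 16 are 774 bp apart and shared an island on each day. The day 0 island (58928201 to 58930800) held 105 reads (85.9 to 127), and the day 3 island (58927001 to 58931400), which contained it, held 256 (226 to 289). These counts too are unscaled and show no change in the mark. Olfr183 has an annotated body of 71199 bp, of which 1.94% and 2.79% were covered. Olfr912 was covered over 557 bp on day 0 by an island of 120 reads (99.5 to 143), at 31.6 reads per kb, below the median of the day 0 list. Its absence from the day 3 list does not by itself show less of the mark, since regions under the threshold are not listed.

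On day 3, 5 receptor genes were covered over their whole body, which were Olfr835, Olfr849, Olfr878 and Olfr887 on chromosome 9 and Olfr19 on chromosome 16. Of these, Olfr878 alone was also in an island in naive cells. Olfr19 (16673050 to 16673979), which stands outside any cluster, lay in an island of 12.8 kb with 735 reads (683 to 790). Of the 42 genes, 17 were covered over at least 50% of the body and 8 over less than 10%. Among the former were Olfr868 (90.5%), Olfr77 (84.9%), Olfr39 (80.3%), Olfr920 (78.8%), Olfr177 (74.7%) and Olfr904 (70.9%), all without an island on day 0. The most covered bases were in Olfr165, over 6.90 kb of a 23714 bp body. At the edge of the 1 bp rule, Olfr933 was covered over 4 bp, Olfr980 over 29 bp and Olfr172 over 40 bp on day 3. Just outside it, Olfr883 was 8 bp from an island, and Olfr195 and Olfr860 were each 23 bp away. On day 0 the closest on the inside was Olfr181 with 444 bp, and the closest on the outside were Olfr172 (752 bp away), Olfr866 (1766 bp) and Olfr965 (3429 bp).

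**Figure D1:**
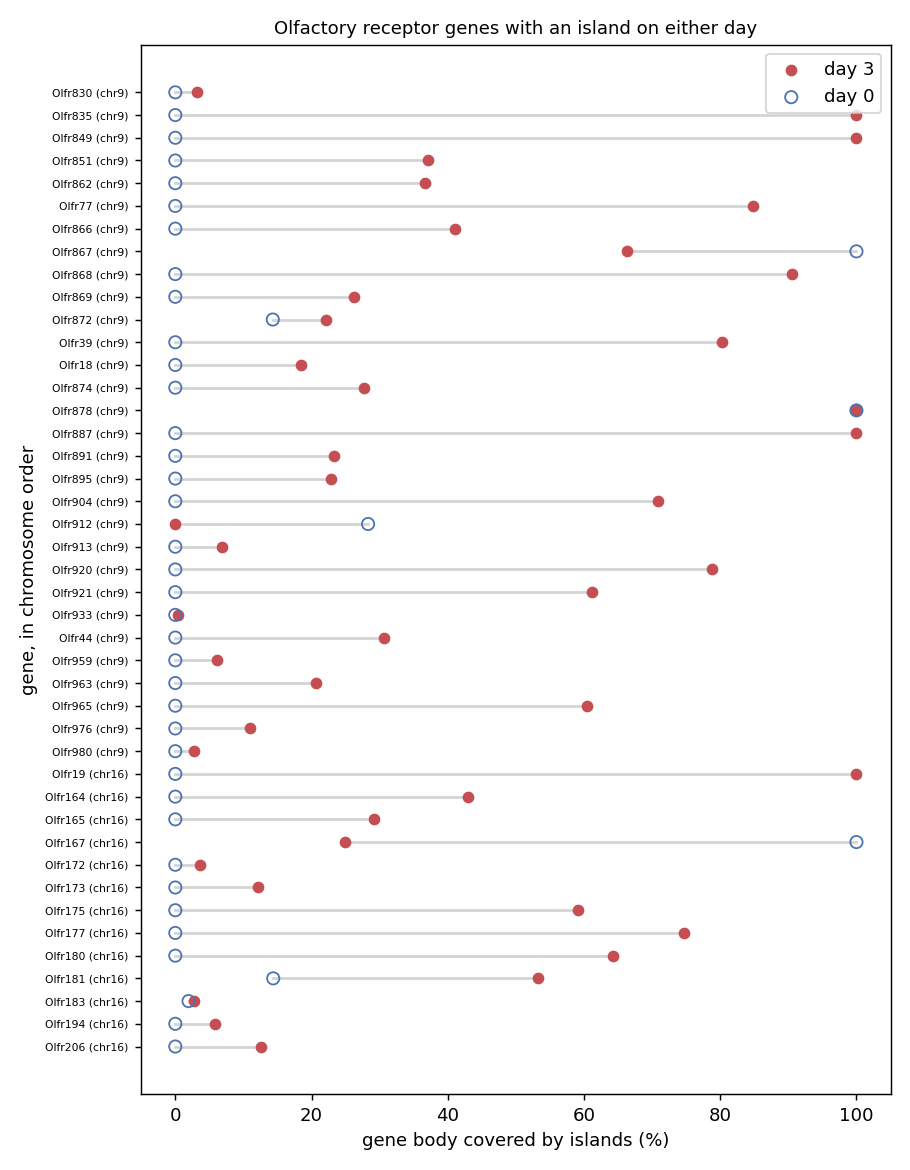
Share of the gene body covered by islands (%, horizontal axis) for each receptor gene with an island on either day, in chromosome order, as an open circle for day 0 and a filled circle for day 3, from 1 library per day. Most genes are at 0 on day 0 and above it on day 3, and Olfr867, Olfr167 and Olfr912 lie lower on day 3.

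Receptor genes carry older names with a MOR family number, which group them by sequence, and 41 such families were present among the 165 genes. MOR171, the largest with 35 genes, all on chromosome 9, had an island in 3 on day 3 (Olfr933, Olfr44 and Olfr965) and in none on day 0. MOR184 on chromosome 16 had one in 6 of 8 genes on day 3 (Olfr172, Olfr173, Olfr175, Olfr177, Olfr180 and Olfr181). MOR145 on chromosome 9 had one in 5 of 6 (Olfr866, Olfr868, Olfr869, Olfr872 and Olfr18). Each of the latter 2 families had 1 gene with an island on day 0. Body length differed alongside, with a median of 939 bp in MOR171, 1982.5 bp in MOR184 and 6486.5 bp in MOR145, and its part in the counts was not tested. The families were named here after their values were seen.

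Chaining genes at gaps of up to 100 kb gave 7 clusters of at least 2 genes and left 4 genes of chromosome 16 alone. On chromosome 9, 4 clusters of 6 to 10 genes followed each other between 18754692 and 20336094, and another of 94 genes (Olfr160 to Olfr986) ran from 37711348 to 40188094. On chromosome 16 there were clusters of 7 genes (Olfr165 to Olfr171, 19406991 to 19625101) and of 25 genes (Olfr172 to Olfr209, 58760152 to 59362240). Together they spanned 4536 kb. Flanks were taken as 500 kb on each side without other receptor genes or clusters, 4341 kb in all. The 4 neighbouring clusters of chromosome 9 share flank sequence. It counts once in pooled values and again for each cluster in values by cluster, so tallies over clusters are not independent.

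**Figure D2:**
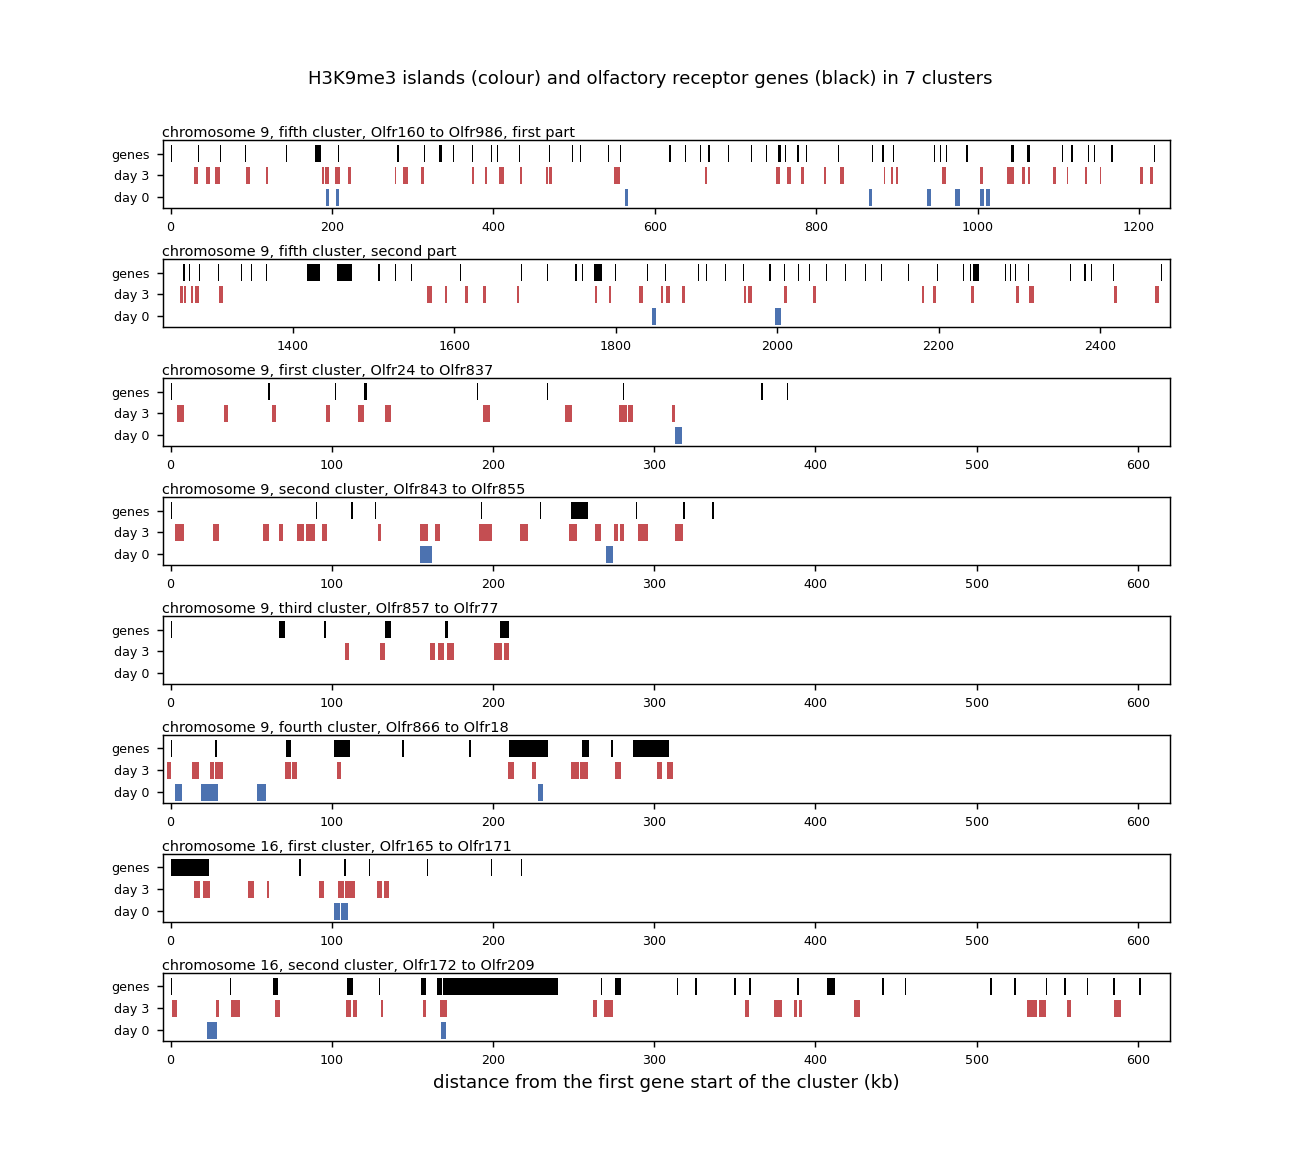
Maps of the 7 clusters, the largest in 2 parts at its own scale and the shortest genes at a minimum line width, with the distance from the first gene start in kb on the horizontal axis, receptor genes in black, day 3 islands in red and day 0 islands in blue. The 145 islands of day 3 are spread over all 7 clusters, and the 21 of day 0 leave the third cluster of chromosome 9 empty.

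Inside the clusters, 105.4 kb or 2.32% of the sequence was covered on day 0, and 531.4 kb or 11.7% on day 3. In the flanks the shares were 4.89% and 10.9%. The clusters were therefore covered to 0.475 times the share of their flanks in naive cells and to 1.08 times on day 3. On day 0, 2 of the 7 clusters were above their flanks, and on day 3, 4 of them were. When the day 3 list was shortened to the 19989 islands that held the most reads, the day 3 ratio was 0.820, on the other side of 1. The clusters thus did not stand above their flanks on day 3 under each choice of islands. The pooled day 0 ratio was below 1 under every alternative tried (0.214 to 0.565).

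The ratio of day 3 to day 0 was larger inside the clusters than around them. Covered sequence was 5.04 times as much on day 3 inside the clusters, 2.23 times in the flanks and 1.98 times on all autosomes. It was 2.63 times in the 52 receptor clusters of other autosomes. With the reduced day 3 list these ratios were 2.40, 1.39, 1.18 and 1.36 in the same order. With islands of at least the median density of their list they were 10.9, 2.04, 1.999 and 2.70. Of the 6 clusters with an island on day 0, 5 had a larger ratio than their flanks, which neighbouring clusters partly share. The exception was the fourth on chromosome 9 (Olfr866 to Olfr18), with 1.94 inside and 2.25 in the flanks. This cluster had the highest day 0 share, 7.57%, from 4 islands.

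The largest cluster, Olfr160 to Olfr986, was covered to 2.003% by 10 islands on day 0 and to 10.1% by 66 islands on day 3, against 5.93% and 8.44% in its flanks. Of its 94 genes, 2 carried an island in naive cells (Olfr878 and Olfr912) and 16 after culture. Along its length, in segments of 250 kb, day 3 coverage ran from 4.40% to 16.6%, with the highest share in the first segment, which holds Olfr160 to Olfr878. The longest run of genes without an island on day 3 was of 16 neighbours, from Olfr934 to Olfr955 (38982110 to 39470724). That stretch of 488.6 kb held 8 islands between its genes on day 3 (5.85% covered) and none on day 0. The cluster also holds Vwa5a, AW551984, Tmem225 and Olfr911-ps1, which are not among the 165. On its sides lie Panx3, a pannexin channel gene with 5.50 kb covered on day 3, and the zinc finger gene Zfp202 with none on either day.

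The densest coverage on day 3 was in the second cluster of chromosome 9, Olfr843 to Olfr855, with 22.8% in 18 islands, 3.50% on day 0 and 14.2% in its flanks on day 3. Of its 10 genes Olfr849 and Olfr851 had an island on day 3, so most of its islands lay between genes. The third cluster (Olfr857 to Olfr77) had no island on day 0 and 11.9% on day 3, when its flanks were at 17.7%. The first (Olfr24 to Olfr837) was at 1.096% and 9.55%. These 4 neighbouring clusters are interrupted and bordered by Muc16, a mucin gene with 21.8 kb covered on day 3, and the zinc finger genes Zfp317 (15.8 kb) and Zfp560 (11.7 kb). In naive cells these 3 genes carried no island. On chromosome 16, Olfr165 to Olfr171 was covered to 3.48% and 14.4%, and Olfr172 to Olfr209 to 1.46% and 11.1%. Their neighbours on day 3 were Hira (12.6 kb), Lamp3 (5.60 kb), Gabrr3 (16.6 kb) and Cldnd1 (none). On day 0 Lamp3 had 5 kb covered, Gabrr3 3 kb, and the other two none.

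**Figure D3:**
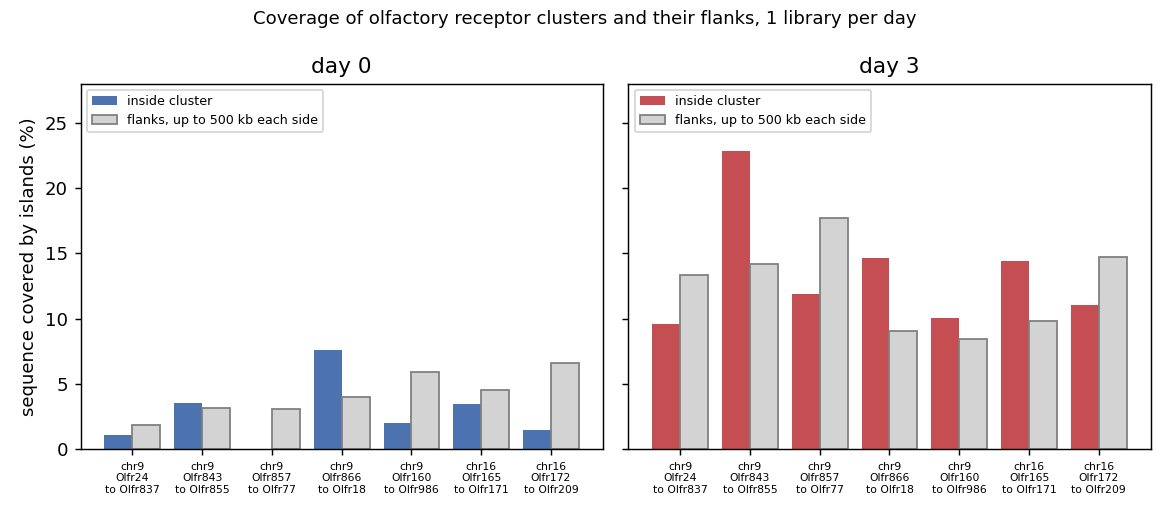
Share of sequence covered by islands (%, vertical axis) inside each of the 7 clusters (coloured bars) and in their flanks (grey bars), on day 0 and day 3, from 1 library per day. On day 3 the cluster Olfr843 to Olfr855 reaches 22.8%, and 4 of the 7 clusters exceed their flanks.

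The 4 genes outside clusters differed. Olfr161 and Olfr15, near the start of chromosome 16, had no island on either day, and their flanks were covered to 1.501% and 3.804% on day 3. Olfr19 was fully covered on day 3. Olfr164 (19285794 to 19286741) was covered over 407 bp by an island of 150 reads (127 to 176) on day 3 and had none on day 0.

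Inside the clusters, a larger share of the sequence was covered near the receptor genes than far from them on day 3. Sequence within 5 kb of a gene, bodies included, made up 41.6% of the clusters and held 63.3% of their covered sequence on day 3 and 32.1% on day 0. Of the 145 day 3 islands, 43 touched a gene body and a further 61 had an edge within 5 kb of one. The covered share was 15.1% in bodies, 17.6% up to 1 kb from the nearest gene, 20.2% from 1 to 2 kb and 18.3% from 2 to 5 kb. It was 8.24% from 5 to 10 kb, 6.06% from 10 to 20 kb and 8.37% farther away. Near sequence (bodies and up to 5 kb, a limit set after seeing the profile) was covered to 17.8% and far sequence to 7.37%, a ratio of 2.42. The ratio was above 1 in each of the 7 clusters, from 1.70 in Olfr843 to Olfr855 and in Olfr165 to Olfr171 up to 6.81 in Olfr857 to Olfr77. Without the largest cluster it was 2.43.

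On day 0 no such excess was seen. Near sequence was covered to 1.79% and far sequence to 2.70%, a ratio of 0.663. By chromosome the ratio was 0.602 on chromosome 9 and 1.09 on chromosome 16. Near exceeded far in 2 of the 7 clusters, and the third cluster of chromosome 9 had no day 0 island to compare. With only 21 day 0 islands, 11 of them within 5 kb of a gene, the day 0 profile rests on few regions. The day 0 ratio turned to 1.82 when islands under the median density of the list were left out, which left 6 of the 21. The day 3 ratio was 2.68 with the reduced day 3 list and 3.27 with the density limit.

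The same measure was taken elsewhere for comparison. In the 52 receptor clusters of other autosomes the ratio of near to far was 1.60 on day 0 and 2.16 on day 3. On chromosomes 9 and 16 outside these clusters, sequence 5 kb or less from any other protein-coding gene was compared with sequence from there up to 20 kb, bodies left out. The ratio was 0.866 on day 0 (3.61% and 4.16%) and 0.933 on day 3 (5.36% and 5.74%). Measured in that way, the receptor clusters gave 0.710 on day 0 and 2.59 on day 3. The higher coverage near genes on day 3 was thus shared with receptor clusters of other chromosomes and was not seen around other genes of the same chromosomes. No test of these differences was made.

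The strand was known for 137 of the receptor genes. On day 3, 52 of these had an island within 5 kb before their start and 41 within 5 kb past their end. Of these genes, 34 had one before the start alone, 23 past the end alone and 18 on both sides. The 5 kb before the start was covered to 22.4% on average and the 5 kb past the end to 14.9%. With the reduced day 3 list these were 13.7% and 5.07%, and with the density limit 11.7% and 7.47%. On day 0 the shares were 2.14% and 1.98%. The 300-base window at the start lay at least partly in an island for 28 of the 137 genes on day 3, and for 4 on day 0. The same counts for other protein-coding genes are not given here.

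**Figure D4:**
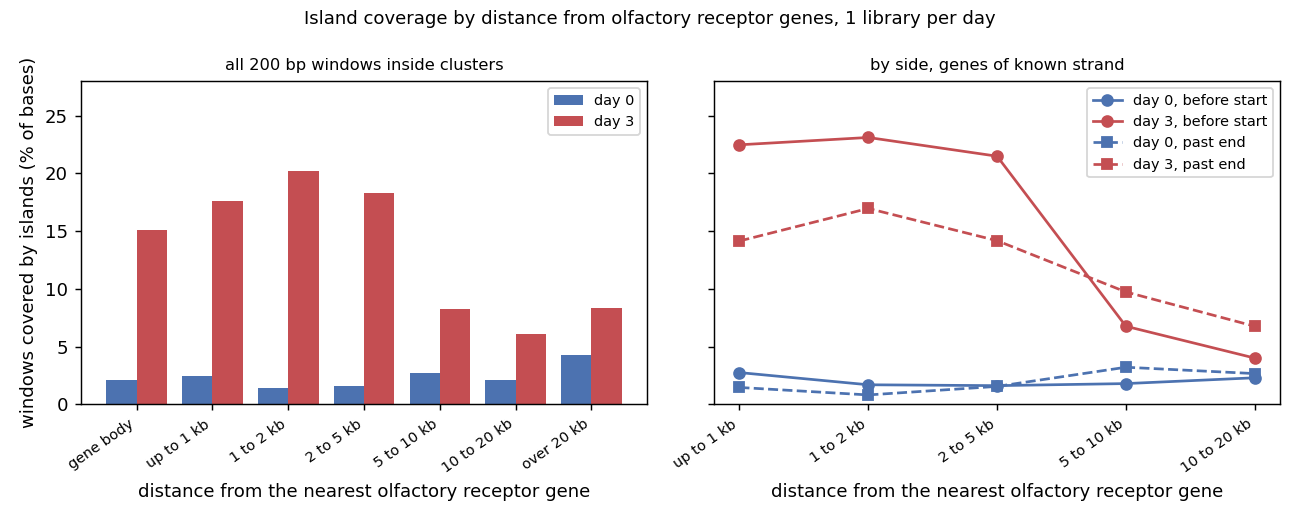
Share of bases in 200 bp windows covered by islands (%, vertical axis) by distance from the nearest receptor gene inside the clusters, for all windows (left) and by side for genes of known strand (right), 1 library per day. Over all windows day 3 coverage is between 15.1% and 20.2% up to 5 kb and between 6.06% and 8.37% beyond. By side it is between 14.1% and 23.1% up to 5 kb and between 4.01% and 9.73% from 5 to 20 kb, where the right panel ends. Day 0 coverage stays at or below 4.28% in both panels.

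The median distance from a gene to the nearest island was 83.0 kb on day 0 and 3.17 kb on day 3, over all 165 genes. An island lay within 5 kb of 14 genes on day 0 and of 93 on day 3, and within 10 kb of 21 and 105. The day 3 list held more islands, and the same distances and counts for all protein-coding genes are not given here. The 123 genes without an island on day 3 were at a median of 9.21 kb from one, and 63 of them had one within 10 kb. On day 0 the 158 genes without an island were at a median of 88.1 kb, and 14 had one within 10 kb.

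The day 3 islands in the clusters were of ordinary density for their list, and most day 0 islands were below the median of theirs. The 145 day 3 islands had a median of 53.1 reads per kb (range 43.3 to 79.2) and a median length of 3400 bp, where the whole list had 52.9 reads per kb and 3600 bp. On day 3, 77 (53.1%) were at or above the list's median density. The 21 day 0 islands had a median of 32.5 reads per kb (range 28.5 to 40.4) and 4200 bp, where the whole list had 34.1 and 4800 bp. Of these, 6 (28.6%) were at or above the median. The densest day 3 island in a cluster was 1.20 kb long with 95 reads (76.9 to 116), at 38862801 to 38864000 on chromosome 9 between receptor genes. Densities are not corrected for depth, and no density is compared between the days. Of the 21 day 0 islands in the clusters, 9 met a day 3 island, and of the 145 day 3 islands 10 met one of day 0, with 26 kb in common. The overlap over the whole lists is not given here, so these counts cannot be called particular to the clusters.

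Receptor genes of the other chromosomes had an island in 53 of 941 cases on day 0 (5.63%, interval 4.33 to 7.29) and in 133 on day 3 (14.1%, interval 12.1 to 16.5). On chromosomes 9 and 16 the share was 4.24% (2.07 to 8.50) on day 0 and 25.5% (19.4 to 32.6) on day 3. With bodies of up to 2000 bp the day 3 shares were 12.1% (10.02 to 14.5) elsewhere and 16.8% (11.5 to 23.9) here. Neighbouring genes can share an island, so these intervals are no test of the difference between the groups. By bases, the bodies on other chromosomes were covered to 4.60% and 9.30%. Among the 13 chromosomes with at least 10 receptor genes, chromosome 9 had the highest body coverage on day 3 (16.5%), followed by chromosome 7 (14.4%) and chromosome 16 (13.1%). Chromosome 2, with the most receptor genes, stood at 3.14% and 9.54%. Relative to the coverage of the chromosome itself, chromosome 9 was at 2.09 on day 3 and chromosome 7 at 2.76. Chromosome 19 was at 1.81, chromosome 11 at 1.55 and chromosome 16 at 1.34.

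**Figure D5:**
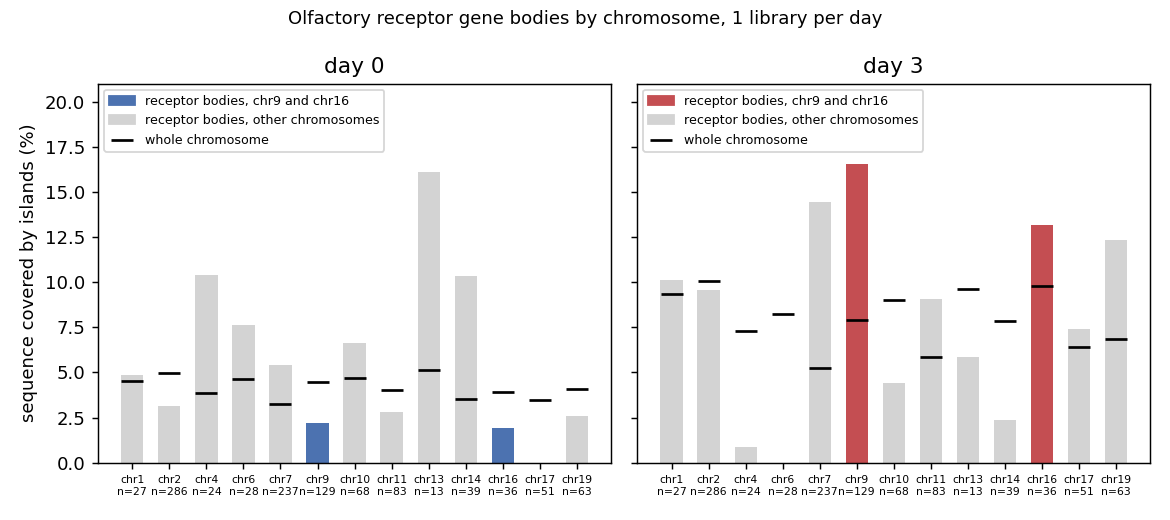
Share of olfactory receptor gene bodies covered by islands (%, bars) on each chromosome with at least 10 receptor genes, with the covered share of the whole chromosome as a black line, on day 0 and day 3, 1 library per day. Chromosomes 9 and 16 (coloured) lie below their chromosome's line on day 0 and above it on day 3, as do chromosomes 11, 17 and 19.

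Of 23 genes that serve olfactory receptor signalling, trafficking, choice or silencing, 9 carried islands in naive cells and 8 after culture, with 7 in common. That is 39.1% and 34.8%, beside 22.7% and 27.1% of all protein-coding genes, and the listed genes are long, with a median body of 30.5 kb. Rtp1 and Rtp2, chaperones that bring receptors to the cell surface and lie on chromosome 16, had none on either day. Ebf1, a transcription factor of olfactory neurons and B cells, had 29.0 kb covered (day 0) and 41.8 kb (day 3). Ric8b, a chaperone of the olfactory G protein, was covered over 13.4 and 17.4 kb. Kdm1a, a histone demethylase needed for receptor choice, had 15.4 kb covered in naive cells and 3.8 kb after culture. Adcy3, the adenylyl cyclase of odour signalling, had 3.20 kb covered on day 3 and none on day 0, and Reep1, another trafficking gene, 5 kb on day 0 and none on day 3.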

How the data were processed

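H3K9me3 islands of 2 native ChIP-seq libraries, 1 per day, were used as the authors deposited them. The deposited whole number of each island was read as a raw count of ChIP reads, not scaled for depth, length or input. The submitters' processing notes name Bowtie2, SICER 1.1 and mm10. The sources used here do not give how significance was set, whether input was used or what was done with reads that map to several places. For related genes, the treatment of such reads can change which islands are listed. Library depth is unknown. Without replicates no test was made, and 95% Wilson and Poisson intervals cover counting error only.

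Islands were converted to 1-based coordinates. A gene had an island when 1 bp of its body was covered, and overlapping bodies were merged before bases were counted. Start windows, with strand, of 137 of the 165 genes came from RefSeq (GRCm38.p6). Inside clusters, 200 bp windows were assigned to the nearest receptor gene. Each chromosome ended at its last island or gene. Python 3.11.15, pandas 2.3.3 and scipy 1.17.1 were used, and the coverage functions were tested on simulated data. Genes were named by rule: those with an island on either day, those nearest the 1 bp limit, and those at the borders of clusters. The members and lists were chosen with earlier results of these data known. The planned protein comparison was not made.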

Additional observations from a re-analysis of the deposited data

How the results depend on the processing

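When only the 19989 day 3 islands holding the most reads were kept, 21 receptor genes instead of 42 met one. Covered shares on day 3 were then 7.33% of bodies, 5.58% inside clusters and 6.80% in flanks, and the ratio of inside to flanks reversed from 1.08 to 0.820. The ratio of day 3 to day 0 was 2.40 inside and 1.39 in flanks, and that of near to far on day 3 was 2.68. With islands of at least the median density of their list, 4 genes met an island in naive cells and 25 after culture. Bodies were covered to 1.501% and 8.73%, clusters to 0.476% and 5.18% and flanks to 2.23% and 4.54%, with inside to flanks at 0.214 and 1.14. Day 3 over day 0 was 10.9 inside and 2.04 in flanks, and near to far reversed on day 0 from 0.663 to 1.82 and was 3.27 on day 3. With the density limit, 6 day 0 islands remained in the clusters. The shares of all protein-coding genes that met an island under these limits are not given here. The causes were not tested.

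Asking for at least 50% of the body left 3 genes on day 0 and 17 on day 3, and allowing an island within 10 kb gave 21 and 105. Shares of all protein-coding genes under these rules are not given here. Chaining at 50 kb gave 18 clusters, with 2.12% covered inside on day 0. Chaining at 200 kb gave 4, with inside to flanks at 1.13 on day 3. Flanks of 250 kb were covered to 5.77% on day 0 (inside to flanks 0.403). Flanks of 1 Mb were covered to 4.11% on day 0 and 8.598% on day 3 (inside to flanks 0.565 and 1.36). With near taken as 2 kb or 10 kb, near to far was 0.820 and 0.782 on day 0 and 1.73 and 2.12 on day 3, and without the largest cluster it was 0.950 on day 0. The near-to-far and day-ratio alternatives were chosen after seeing the data. No paired analysis was possible because there was 1 ChIP library per day, and for the same reason none could be left out.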

Other observations

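The start windows of the 137 receptor genes had a median of 66% A and T, against 47.3% over all 32851 windows of the RefSeq table, and 87 had ATG at the annotated start. The letters TAATTA, a sequence bound by homeodomain factors, were found in 32 windows (23.4%), against 5.29% of all windows. All windows were not matched to the receptor windows for A and T content, so these shares show no excess of the letters beyond base composition. They were in 6 of the 28 windows touched by a day 3 island and in 26 of the other 109.  These are matches of letters in short windows and show no binding.

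Exact runs shared with the start window of another olfactory receptor gene were counted over 940 such windows, since reads from shared sequence can map to several places. A run of 50 bases was shared by 14 of the 137 windows, and 1 of those genes had an island on day 3, against 38 of the 123 genes whose window shared none and 39 of all 137. A run of 100 bases was shared by 4, and none of these 4 genes had an island on day 3. No window shared a run of 150 bases. Coding sequence past the first bases was not covered by these windows, and the part of read placement in the island counts was not tested.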
